A study of Homo sapiens with 4 samples.

Results

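A set of 9 genes of the Notch pathway was followed across RNA sequencing libraries from the human cell line A549, which was derived from a lung adenocarcinoma. They are 3 receptors (NOTCH1, NOTCH2 and NOTCH3), 2 ligands (JAG1 and JAG2) and 4 genes that Notch signaling is known to switch on (HES1, HES4, HEY1 and NRARP). They were taken by symbol from the 57905 genes of the deposited count table, and all 9 were found. There were 4 libraries, 1 per condition, labelled scramble control (sc), shRNA against DCBLD2 (shDCBLD2), empty vector (the vector control) and DCBLD2 overexpression. For its stable lentiviral lines the study describes an shRNA vector with puromycin resistance, and for the DCBLD2 coding sequence a vector with an EF1 promoter and blasticidin resistance. It describes the cells sequenced with the DCBLD2 or the empty vector only as transfected, and does not say which cells gave the other 2 libraries. The library of shDCBLD2 is titled shD5, and the sources used here do not say which printed hairpin that is. All conditions share the A549 background, and no other treatment is named in their labels.

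Notch receptors are single-pass membrane proteins that are activated by ligands on neighboring cells. After ligand binding, ADAM proteases and the γ-secretase complex cut the receptor, and its freed intracellular domain enters the nucleus, where it joins the DNA-binding protein RBPJ and the coactivators of the MAML family. Among the genes that respond in many tissues are those of the HES and HEY families, which encode basic helix-loop-helix repressors. In airway epithelium the pathway is known for steering the choice between secretory, ciliated and neuroendocrine fates.

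The read counts on genes came to between 16601633 and 21537283 per library. With 1 library per condition there is no replicate, so no p-value is given, and each comparison is one of libraries, not of conditions. Levels are given as CPM, counts scaled by library size and TMM factors. Ratios are on a log2 scale, and their 95% intervals (exact Clopper-Pearson) cover counting error only. Calls needed a ratio of 2-fold or more and an interval without 0. The background is the 13966 genes with a mean of at least 1 CPM, among them all 9 members. Fewer cells of a type and less RNA per cell cannot be told apart in such bulk libraries.

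The targeted gene was examined first. DCBLD2 stood at 504 CPM (sc), 197 CPM (shDCBLD2) and 434 CPM (empty vector). The library labelled DCBLD2 overexpression had 242 CPM, which is lower than its control and goes against the label, with a log2 ratio of -0.84 (-0.90 to -0.79). That library is called the OE-labelled library from here on, and every direction drawn from it carries this reservation. The 10 epithelial-like markers, among them KRT8 and KRT18, were all detected in each library, at a summed 21066 to 30909 CPM. Of 6 alveolar-like markers, 2 or 3 had more than 3 counts, and NKX2-1 had no count in the 3 libraries other than the OE-labelled one, where it had 7.

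Identifiers and positions are as deposited, in a build that the files do not name. NOTCH1 (ENSG00000148400) lies on chromosome 9 at 139388896-139440314, NOTCH2 (ENSG00000134250) on chromosome 1 at 120454176-120612240 and NOTCH3 (ENSG00000074181) on chromosome 19 at 15270444-15311792, all on the minus strand. JAG1 (ENSG00000101384) lies on chromosome 20 at 10618332-10654694 and JAG2 (ENSG00000184916) on chromosome 14 at 105607318-105635161, both on the minus strand. HES1 (ENSG00000114315) lies on the plus strand of chromosome 3 at 193853934-193856521. HES4 (ENSG00000188290) lies on the minus strand of chromosome 1 at 934342-935552, NRARP (ENSG00000198435) on that of chromosome 9 at 140194083-140196703, and HEY1 (ENSG00000164683) on that of chromosome 8. NOTCH1, JAG1 and JAG2 overlap other entries, which took 7, 8 and 1 counts over all libraries.

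RBPJ sites are part of how this pathway reaches its targets, so the promoter windows of the members were read from the RefSeq sequences on GRCh38.p14. Each window runs from 250 bases before to 50 bases after the gene start, and windows were matched for 8 of the 9 members, not for HEY1. They were searched on both strands for TGGGAA, the core RBPJ motif. HES1 (chr3:194135898-194136197, plus strand), HES4 (chr1:1000048-1000347, minus strand) and NRARP (chr9:137302222-137302521, minus strand) are shown, since they are known targets that differ in whether the window holds this motif. Capitals mark the motif, and each window is written 5′ to 3′ on the strand of the gene.

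HES1: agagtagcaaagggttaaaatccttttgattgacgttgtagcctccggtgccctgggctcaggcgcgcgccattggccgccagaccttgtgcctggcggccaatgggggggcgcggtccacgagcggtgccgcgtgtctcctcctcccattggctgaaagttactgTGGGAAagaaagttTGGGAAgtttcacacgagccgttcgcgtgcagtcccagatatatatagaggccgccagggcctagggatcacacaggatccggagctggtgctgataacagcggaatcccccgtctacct
HES4: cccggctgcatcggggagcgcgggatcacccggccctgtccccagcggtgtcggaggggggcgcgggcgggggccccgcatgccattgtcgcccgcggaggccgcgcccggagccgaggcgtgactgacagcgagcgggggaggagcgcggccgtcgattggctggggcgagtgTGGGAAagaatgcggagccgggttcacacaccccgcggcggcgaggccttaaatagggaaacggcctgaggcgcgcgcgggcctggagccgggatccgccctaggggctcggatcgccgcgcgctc
NRARP: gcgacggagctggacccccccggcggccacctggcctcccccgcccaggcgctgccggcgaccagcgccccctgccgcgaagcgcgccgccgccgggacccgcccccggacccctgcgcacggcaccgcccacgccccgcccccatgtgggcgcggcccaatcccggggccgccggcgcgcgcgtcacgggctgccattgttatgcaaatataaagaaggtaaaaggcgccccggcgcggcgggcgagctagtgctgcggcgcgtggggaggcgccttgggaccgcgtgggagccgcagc

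HES1 held the motif at 84 and 70 bases before the gene start, and HES4 held it at 76 bases before. The upstream one in HES1 and the one in HES4 are preceded by a G, which gives GTGGGAA, a longer form that contains the core. The window of NRARP and those of NOTCH1, NOTCH2, NOTCH3, JAG1 and JAG2 had no match. Of 35116 RefSeq windows of the same length, 24.0% held the core on either strand, 3.80% held it more than once and 6.25% held the longer form. The GC content was 59.0% in HES1, 75.7% in HES4 and 78.3% in NRARP, against a median of 58.7% over all windows. A match is a string of letters and not evidence of binding.

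To see how the pathway was set in these libraries, the members were first described by level. Per length, as FPKM, HES4 was the most abundant target in every library, and JAG1 was the most abundant ligand and NOTCH3 the most abundant receptor. The deposited FPKM of NOTCH3 ran from 7.59 to 24.04, that of JAG1 from 15.87 to 30.84 and that of HES4 from 22.66 to 86.69. HEY1 lay at the other end, between 0.4 and 0.57 FPKM in all libraries but the OE-labelled one. There, 7 of the 9 members had their highest level, where 34.2% of all genes past the filter did. The empty vector held the lowest level of 4 members and the highest of none, with background shares of 15.3% and 16.9%.

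**Figure D1:**
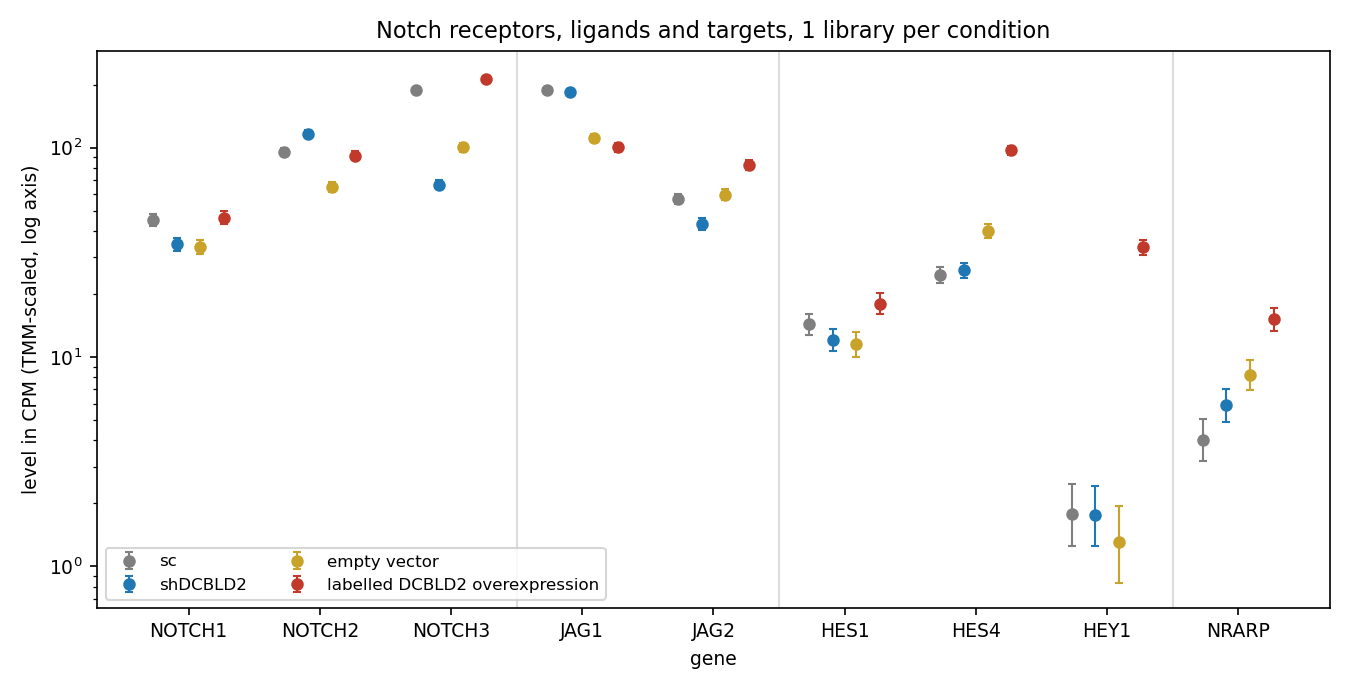
Level of each member in CPM after TMM scaling (log axis) in the 4 libraries, with exact 95% Poisson intervals that cover counting error only. HEY1 stands at 33.4 CPM in the OE-labelled library and between 1.31 and 1.79 CPM in the others, while NOTCH1 stays within a factor of 1.38.

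NOTCH3, a receptor best known from vascular smooth muscle, varied most among the receptors. Its level was 189 CPM in sc (3704 counts), 66.7 CPM in shDCBLD2 (1438 counts), 100.3 CPM in the vector control (1841 counts) and 213 CPM in the OE-labelled library (3511 counts). Each neighboring pair in this order, from shDCBLD2 over the empty vector and sc to the OE-labelled library, was separated by an interval that excluded no change. In shDCBLD2 against sc the log2 ratio was -1.505 (-1.59 to -1.42), and NOTCH3 was the only member called there. In the OE-labelled library against the empty vector it was 1.08 (1.003 to 1.17), so the lower bound lay at the 2-fold line. Both calls depended on the control. With sc in place of the empty vector the OE-labelled library gave 0.17 (0.10 to 0.23), and with the empty vector in place of sc the shDCBLD2 library gave -0.59 (-0.69 to -0.49). Neither passed 2-fold. The controls themselves differed by -0.92 (-0.998 to -0.836), the empty vector being lower. The comparisons with exchanged controls share libraries with the matched ones. Of all genes, 8.06% were called higher and 8.96% lower in the OE-labelled library against sc, and 2.23% higher and 8.02% lower (10.3% in all) in shDCBLD2 against the empty vector. Of the members, HEY1, HES4 and NRARP were called higher in the former and 0 were called in the latter.

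NOTCH1 and NOTCH2, the receptors with the widest expression among tissues, moved less. NOTCH1 was at 45.0 CPM in sc, 34.5 CPM in shDCBLD2, 33.6 CPM in the vector control and 46.3 CPM in the OE-labelled library. These fall into a lower pair and an upper pair, and within each pair the counting interval of the ratio included no change. The log2 ratio of NOTCH1 was 0.46 (0.31 to 0.62) in the OE-labelled library against the empty vector and -0.38 (-0.53 to -0.24) in shDCBLD2 against sc. NOTCH2 was at 95.1 CPM in sc, 116 CPM in shDCBLD2, 64.9 CPM in the vector control and 91.6 CPM in the OE-labelled library. Its highest level was in shDCBLD2, unlike those of the other receptors, where its log2 ratio to sc was 0.29 (0.21 to 0.38), and it did not differ between sc and the OE-labelled library beyond counting error. A partial copy of the gene, NOTCH2NL, took 152 to 227 counts per library against 1191 to 2512 on NOTCH2, and reads could have been counted for either, so these values are uncertain.

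The makeup of the receptor pool followed NOTCH3. Summed over NOTCH1 to NOTCH4, the receptors reached 32.56 FPKM in sc, 18.09 in shDCBLD2, 18.39 in the vector control and 34.19 in the OE-labelled library. NOTCH3 accounted for 67.7%, 42.0%, 60.8% and 70.3% of that sum, in the same order. In shDCBLD2 NOTCH2 came close to it, with 38.4% of the sum. NOTCH4, which is known mainly from endothelium, had 11 to 16 counts per library and no more than 0.09 FPKM.

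Among the ligands, JAG1 stood higher in sc and shDCBLD2 than in the other 2 libraries. Its level was 189 CPM in sc and 185 CPM in shDCBLD2, which did not differ beyond counting error, and 111 CPM in the vector control and 100.4 CPM in the OE-labelled library. The log2 ratio was -0.04 (-0.10 to 0.03) in shDCBLD2 against sc and -0.15 (-0.24 to -0.05) in the OE-labelled library against the empty vector, where JAG1 was the only member that was lower. Between the empty vector and sc it was -0.77 (-0.85 to -0.69). With sc as control the OE-labelled library gave -0.91 (-1.0001 to -0.83), and shDCBLD2 against the empty vector gave 0.73 (0.66 to 0.81). For its stable lines the study describes unlike vectors and resistance genes for shRNA and for DCBLD2. It does not say that the 4 libraries came from those lines, and any part of vector or selection cannot be told apart. The table has a second entry named JAG1 at the same place, which took 1 to 3 counts per library and was not used.

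JAG2, the other Jagged ligand, had a different order. It was at 56.9 CPM in sc, 43.4 CPM in shDCBLD2, 59.6 CPM in the vector control and 82.7 CPM in the OE-labelled library. The controls did not differ beyond counting error (log2 ratio 0.07, -0.06 to 0.19), with shDCBLD2 below them and the OE-labelled library above them. The log2 ratios to the matching controls were -0.39 (-0.52 to -0.27) and 0.47 (0.36 to 0.59), and neither reached 2-fold. As a share of the FPKM of JAG1, JAG2, DLL1, DLL3 and DLL4, JAG2 made up 20.4% in sc, 16.1% in shDCBLD2, 26.9% in the vector control and 35.3% in the OE-labelled library. JAG1 made up 68.9%, 69.7%, 50.9% and 43.6%. DLL3, a ligand that acts mostly by blocking signaling within its own cell, ranked next, at 4.58 to 6.9 FPKM.

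**Figure D2:**
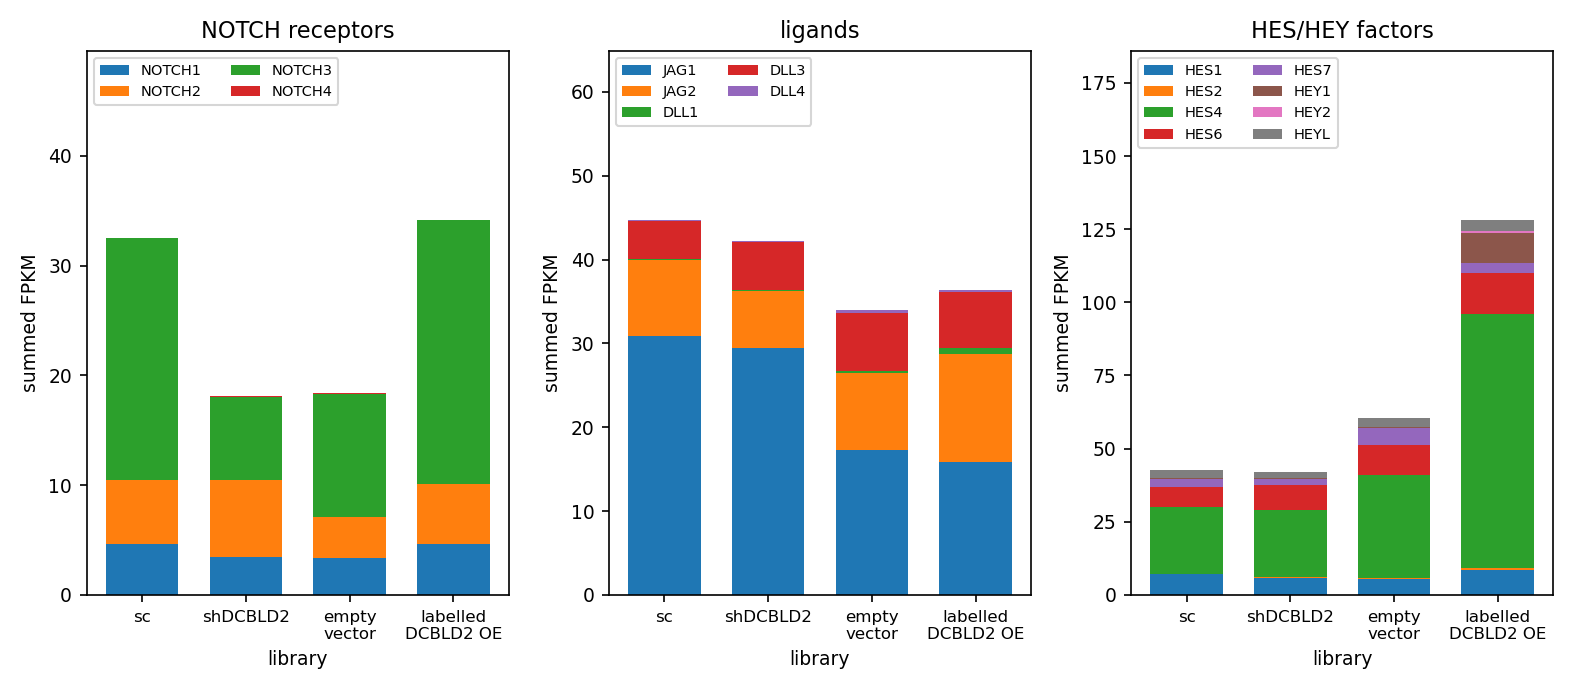
Deposited FPKM of 4 receptors, 5 ligands and 8 HES/HEY factors, stacked per library (1 library per condition, no error bars). The HES/HEY sum is 128.26 in the OE-labelled library against 42.1 to 60.6 in the others, and the receptor sum is 32.56 in sc and 18.09 in shDCBLD2. HES4 makes up 86.69 of the 128.26. Only HES7 is lower in the OE-labelled library than in the empty vector, at 3.29 against 5.81.

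HEY1, a repressor of the HEY family known from vessel and heart development, was the member that differed most. Sc had 35 counts (1.79 CPM), shDCBLD2 38 (1.76 CPM), the empty vector 24 (1.31 CPM) and the OE-labelled library 551 (33.4 CPM). The 3 lower libraries did not differ beyond counting error. The level in the OE-labelled library was 25.5 times that in the vector control, a log2 ratio, with the prior count, of 4.56 (4.09 to 5.33), which stood at rank 75 from the highest among 13966 genes. With sc as control it was 4.14 (3.73 to 4.76). For shDCBLD2 against sc the value was -0.02 (-0.72 to 0.68), so a difference of 1.5-fold in either direction was not detectable at this depth.

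HES4, a repressor of the HES family with no counterpart in the mouse, was higher in the same library from a far higher base. It was at 24.7 CPM in sc, 25.9 CPM in shDCBLD2, 40.0 CPM in the vector control and 97.5 CPM in the OE-labelled library. Sc and shDCBLD2 did not differ beyond counting error, and the others were each apart. The log2 ratio was 1.28 (1.16 to 1.41) in the OE-labelled library against the empty vector and 1.97 (1.83 to 2.13) against sc. Between the empty vector and sc it was 0.69 (0.53 to 0.86), and in shDCBLD2 against sc 0.07 (-0.11 to 0.25).

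HES1, the most studied target of the pathway and a repressor of its own gene, varied little. Its level was 14.3 CPM in sc (280 counts), 12.1 CPM in shDCBLD2 (260 counts), 11.5 CPM in the vector control (211 counts) and 18.0 CPM in the OE-labelled library (297 counts). Only the OE-labelled library was apart from its neighbor in this order. The log2 ratio was 0.64 (0.39 to 0.91) there against the empty vector and 0.33 (0.09 to 0.57) against sc, so HES1 did not pass 2-fold with either control. For shDCBLD2 against sc the value was -0.25 (-0.50 to 0.00), with an interval that just included no change.

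NRARP, an ankyrin repeat protein that is induced by Notch and dampens it by acting on the intracellular domain, was the member whose 4 levels were most evenly spread. It had 79 counts in sc (4.04 CPM), 127 in shDCBLD2 (5.89 CPM), 151 in the vector control (8.23 CPM) and 251 in the OE-labelled library (15.2 CPM). Every neighboring pair in this order was separated by an interval that excluded no change. The log2 ratio was 0.88 (0.59 to 1.19) in the OE-labelled library against the empty vector, short of 2-fold, and 1.88 (1.54 to 2.30) against sc. For shDCBLD2 against sc the value was 0.53 (0.13 to 0.97). Between the empty vector and sc it was 1.01 (0.62 to 1.44), the only member called between the controls, and with library totals as scaling or a prior count of 5 that call was lost.

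**Figure D3:**
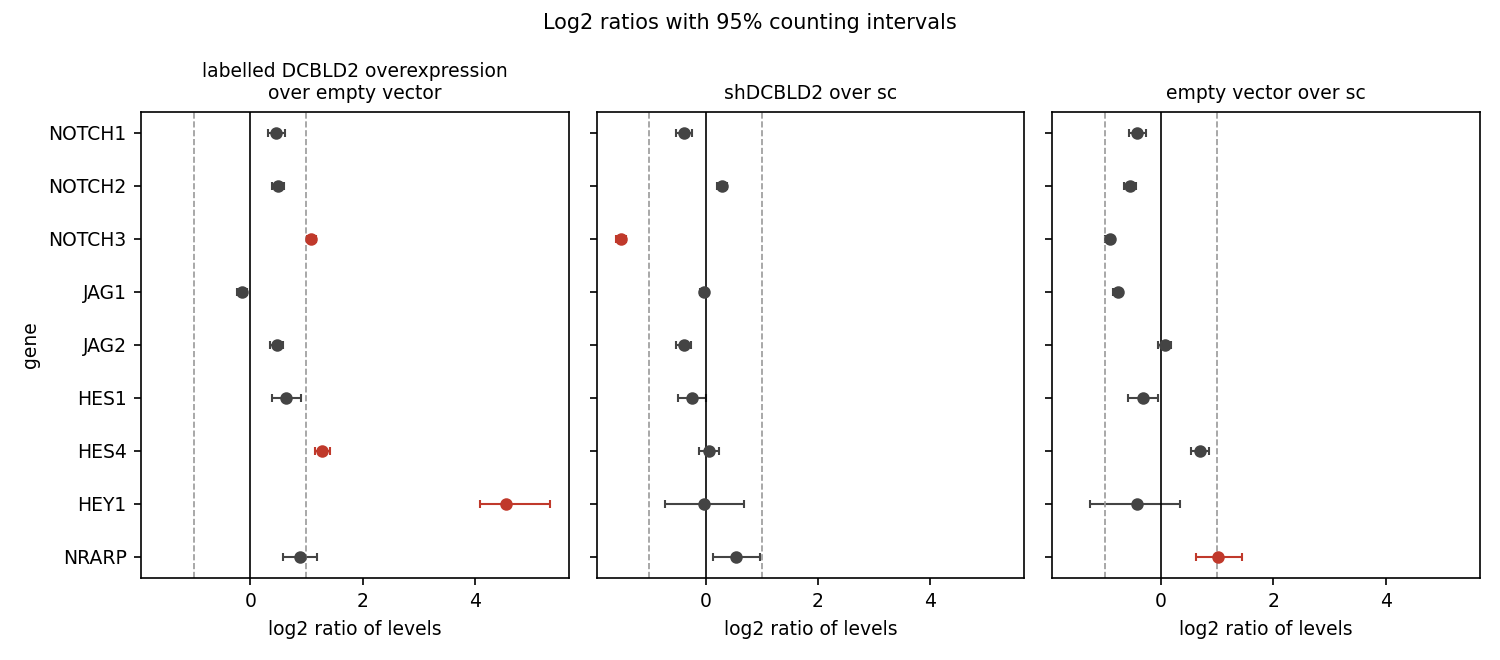
Log2 ratios of the 9 members with exact 95% counting intervals in 3 comparisons, 1 library each. Red points are called (at least 2-fold, interval without 0) and dashed lines mark 2-fold. HEY1 at 4.56 lies far outside the others, NOTCH3 is at 1.08 in the OE-labelled library against the empty vector and at -1.505 in shDCBLD2 against sc, and NRARP is the called gene between the controls.

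Set side by side, in the OE-labelled library against the empty vector 3 of the 9 members (HEY1, HES4 and NOTCH3) were called higher and 0 lower, where 6.39% of all genes past the filter were higher and 5.29% lower. The median log2 ratio of the members was 0.64, against -0.04 over all genes. In shDCBLD2 against sc, 1 of the 9 (NOTCH3) was called lower and 0 higher, with 5.65% and 1.17% of all genes, and the median was -0.04 against 0.01. Between the empty vector and sc, 1 of the 9 (NRARP) was called higher and 0 lower, with 2.21% and 1.89% of all genes, and the median was -0.42 against -0.01. At 1.5-fold, 5 members were called in the OE-labelled library against the empty vector, 1 in shDCBLD2 against sc and 4 between the controls, where 30.6%, 16.5% and 13.7% of all genes were called. The comparison of the controls shares a library with each of the others, so 1 low value can enter a pair of them. Members are not replicates of a condition, and the list was assembled with earlier results of these data known.

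Markers of other cell types were read in the same libraries, without the expression filter. Of 10 neuroendocrine-like markers, 5 were called higher in the OE-labelled library than in the vector control (6.39% of all genes past the filter were), among them NCAM1 (85 against 3 counts) and INSM1 (22 against 0). In the vector control 4 of the 10 were called lower than in sc, where 1.89% of all genes past the filter were. Of the 5 called higher, SYP was at 13.8 CPM in sc against 10.2 CPM in the OE-labelled library (270 and 169 counts). SCG2 was at 1.18 CPM in sc against 1.21 CPM there (23 and 20 counts). The summed level of all 10 was 26.02 CPM in sc, 10.8 CPM in shDCBLD2, 8.88 CPM in the vector control and 31.1 CPM in the OE-labelled library. NEUROD1 and CALCA had no count anywhere. Of 10 fibroblast-like markers, 4 were called higher in the OE-labelled library than in the vector control, POSTN with 42 against 0 counts. All 10 summed to 80.0 CPM there against 36.1 to 57.0 CPM in the other libraries, and FAP had no count anywhere. Most of the 80.0 CPM came from COL1A1, at 63.1 CPM, which was not among the 4 called. Of the 9 endothelial-like markers found, 0 were called in that comparison, VWF and KDR had no count in any library, and most of the summed 65.6 to 153 CPM came from EGFL7. Blood-like markers summed to 4.54 to 22.6 CPM, mostly CD14, with PTPRC at 0 throughout. The summed neuroendocrine-like, fibroblast-like, endothelial-like, blood-like and alveolar-like levels were all highest in the OE-labelled library. So were HEY1, HES4 and NRARP, and 34.2% of all genes past the filter. For 2 of these sums the lead was small. The alveolar-like one was 1.76 CPM from 29 counts, against 1.53 CPM from 33 counts in shDCBLD2. The endothelial-like one was 153 CPM against 138 CPM in the vector control, with EGFL7 at 2449 and 2440 counts. The epithelial-like sum was highest in sc, at 30909 CPM. Of the 10 epithelial-like markers, 2 were called higher in the OE-labelled library than in the vector control and 0 lower. They were EPCAM (88 against 42 counts) and KRT19 (3028 against 1163 counts). In shDCBLD2 against sc, where NOTCH3 was lower, 3 epithelial-like markers were called lower, among them CDH1 with 220 against 1050 counts. So were 2 neuroendocrine-like and 2 fibroblast-like markers, and 0 of these lists were called higher, with 5.65% of all genes lower. The 2 fibroblast-like ones were COL1A2 (1 against 17 counts) and PDGFRB (4 against 13). Their list went the other way in sum, at 57.0 CPM in shDCBLD2 against 36.1 CPM in sc, with COL1A1 at 1165 against 639 counts. Of the alveolar-like markers 1 was called higher and 1 lower, and of the blood-like markers 1 lower. The part of other cells in the values of the members was not tested.

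The remaining Notch pathway genes were taken from a list of 66 that covers ligands, proteases, glycosyltransferases, ubiquitin ligases, nuclear factors and other HES/HEY genes. Of these, 56 passed the filter. In the OE-labelled library against the empty vector 3 of the 56 (5.36%) were called higher and 0 lower, with a median of 0.07, so the share called was below the 11.7% of all genes called in either direction. TLE2 and TLE3, corepressors that HES proteins recruit, were among them. TLE2 was at 13.5 CPM in sc, 7.65 CPM in shDCBLD2, 18.2 CPM in the vector control and 41.2 CPM in the OE-labelled library, a log2 ratio of 1.17 (0.99 to 1.37) to the empty vector. TLE3 was at 41.3, 41.2, 28.98 and 58.9 CPM in the same order, with a log2 ratio of 1.02 (0.87 to 1.18). With sc as control TLE2 kept its call at 1.60 (1.40 to 1.81) and TLE3 lost it at 0.51 (0.38 to 0.65). Of the same family, TLE1 had 0.03 (-0.07 to 0.12) and TLE4 had -0.47 (-0.70 to -0.25) against the empty vector, and of the 12 corepressors 7 had a ratio above 0 and 5 below. DTX1, a ubiquitin ligase of the Deltex family that binds the receptor and is itself a Notch target in lymphocytes, had 29 counts in sc, 12 in shDCBLD2, 13 in the vector control and 43 in the OE-labelled library, with a log2 ratio of 1.72 (0.96 to 2.90). DTX1 was also called lower in shDCBLD2 against sc, with -1.27 (-2.52 to -0.40). Both calls were lost with the controls exchanged, at 0.77 (0.10 to 1.55) in the OE-labelled library against sc and -0.30 (-1.61 to 0.90) in shDCBLD2 against the empty vector. DTX1 passed the filter only through the OE-labelled library (2.61 CPM), with a mean of 0.92 CPM over the others, which favored the call there, so its place among the 3 gives no support.

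Among the nuclear activators, RBPJ was at 12.8 CPM in the OE-labelled library and 17.4 CPM in the vector control, a log2 ratio of -0.43 (-0.69 to -0.18), and at 19.3 CPM in shDCBLD2 and 17.4 CPM in sc, a ratio of 0.15 (-0.06 to 0.36). The median over 9 nuclear activators was -0.25 in the OE-labelled library against the empty vector and 0.06 in shDCBLD2 against sc. KAT2B, a histone acetyltransferase, had -0.81 (-1.18 to -0.48) and SNW1, a coactivator that is also part of the spliceosome, had -0.76 (-0.93 to -0.60) in the former. Of the 9 activators, 5 had a ratio below 0 in that comparison and 4 above, among them MAML1 with 0.31 (0.17 to 0.45). Of the 9 proteases, which include both ADAM genes and the γ-secretase subunits, 0 were called in the OE-labelled library against the empty vector or in shDCBLD2 against sc, where 11.7% and 6.82% of all genes were, so with so few genes the count does not set them apart. ADAM10 had a log2 ratio of -0.47 (-0.59 to -0.34) and FURIN, which matures the receptor, one of 0.80 (0.73 to 0.87) in the OE-labelled library against the empty vector. Among 6 glycosyltransferases LFNG, which modifies the receptor and shifts its choice of ligand, had 0.68 (0.41 to 0.97) there and EOGT had 0.89 (0.55 to 1.26) in shDCBLD2 against sc.

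In shDCBLD2 against sc, 2 of the 56 (3.57%) were called, DTX1 lower and BEND6, a corepressor that binds RBPJ, higher, where 6.82% of all genes were called. BEND6 had 41 counts against 17, a log2 ratio of 1.05 (0.28 to 2.04). It passed the filter only through shDCBLD2 (1.901 CPM, with a mean of 0.70 CPM over the others), which favored this call. Between the empty vector and sc, 4 of the 56 (7.14%) were called, against 4.1% of all genes. HES7 (log2 ratio 1.11, 0.77 to 1.49) and the ligand DLL4 (1.67, 0.81 to 3.04, with 34 against 10 counts) were higher in the vector control. DLL4 passed the filter only through that library (1.85 CPM, with a mean of 0.72 CPM over the others), which favored its call and with it the share of 7.14%. SPEN, a corepressor partner of RBPJ, and EP300, a coactivator that acetylates histones, were lower there, with -1.04 (-1.19 to -0.90) and -1.08 (-1.22 to -0.94).

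**Figure D4:**
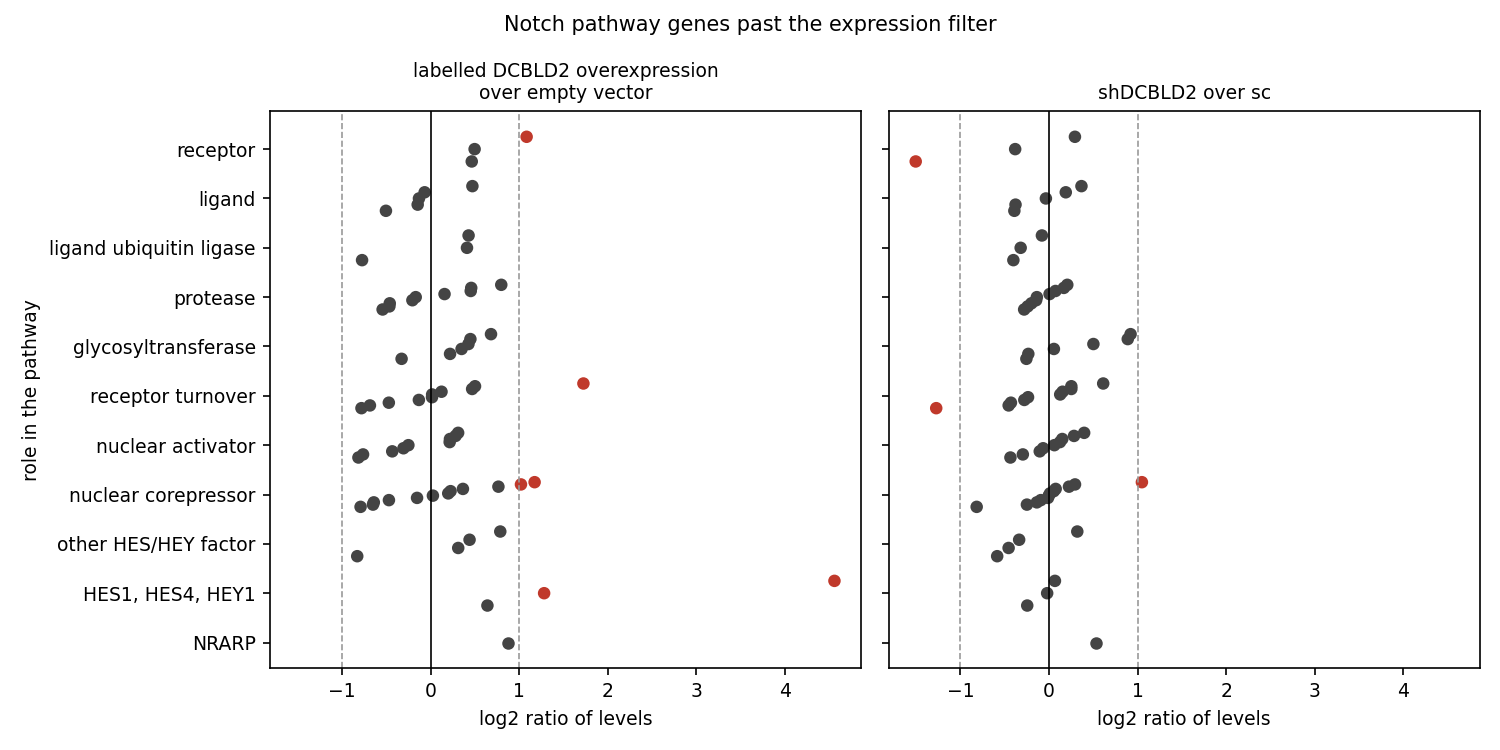
Log2 ratios of the 65 Notch pathway genes past the expression filter (9 members and 56 others), grouped by role, in 2 comparisons. Each point is 1 gene, red points are called and dashed lines mark 2-fold. TLE2, TLE3 and DTX1 are the called genes that are not members on the left, and DTX1 and BEND6 on the right. DTX1 and BEND6 passed the filter only through 1 library, at 2.61 CPM in the OE-labelled one and 1.901 CPM in shDCBLD2.

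Of the pathway list, 10 genes were under the filter. HEY2, the closest relative of HEY1, had 1 count in sc, 0 in shDCBLD2, 2 in the vector control and 28 in the OE-labelled library, a log2 ratio of 3.02 (1.97 to 7.08) to the empty vector. The ligand DLL1 had 7, 10, 16 and 38 counts in the same order, and NEURL1 had 9, 4, 10 and 27. These were named after their values were seen. NOTCH4 had 15, 12, 16 and 11 counts and DLK1, a ligand-like protein, 0, 8, 1 and 0. HES5 and NEUROG3 had no count in any library, where 3 counts correspond to 0.139 to 0.182 CPM.

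Genes with a like pattern over the 4 libraries were sought for the 3 members with the largest spread, by the root mean square difference of centered log2 levels. For HEY1 they included METTL7A (0.21) and ADAMTS1 (0.24), with 119 and 308 counts in the OE-labelled library and no more than 16 in any other. Both were under 1 CPM in every other library. They passed the filter only through the OE-labelled one, which favored a pattern like that of HEY1, so they give no support. For HES4 they were ANK2 (0.03), BIK (0.04) and FOXD3 (0.06). ANK2 also passed the filter only through the OE-labelled library, at 2.24 CPM against no more than 0.87 CPM in any other. For NRARP they were ST6GALNAC2 (0.07), PPT2 (0.11) and RP11-146F11.1 (0.13). ANK2, FOXD3 and the genes named for NRARP overlap other entries, so their counts are uncertain. With 4 libraries many genes share a pattern, and a small difference says only that the levels ran in parallel.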

How the data were processed

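RNA of 4 A549 libraries was sequenced after poly(A) selection. The authors deposited raw gene counts, and FPKM values that equal those counts scaled by exonic size and by the library total. The aligner, the counting program, the use of strand and the annotation are not given in the sources used here. The submitters' processing notes name the build mm9, a mouse build, while the gene identifiers are human, so deposited coordinates are given without a build. Promoter windows are from RefSeq on GRCh38.p14.

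Counts were scaled with TMM factors (edgeR 4.0.16, R 4.3.3) or, as an alternative, DESeq2 1.42.0 size factors. Log2 ratios used a prior count of 2, and genes needed a mean of at least 1 CPM. Intervals and figures used Python 3.11.15 with scipy 1.17.1 and matplotlib 3.10.9. The calling step was tested on simulated data. Alternatives were library totals, prior counts of 0.5 and 5, other filters, a 1.5-fold threshold, equal depth and the other control. Scaling without the OE-labelled library was added after seeing the data. Where a symbol had several entries, that with the highest count was used, and TLE5 was found under an older symbol. Genes named were the members, DCBLD2, the called pathway genes, the 3 nearest patterns of each of 3 members, markers, and others chosen after their values were seen. The members and lists were chosen with earlier results of these data known. Some genes these rules name are not reported here.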

Additional observations from a re-analysis of the deposited data

How the results depend on the processing

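No paired analysis was possible because each condition has 1 library. Under other scaling factors, prior counts or equal depth the calls of the 9 members held in the OE-labelled library against the empty vector and in shDCBLD2 against sc. In the former, a 1.5-fold threshold called 5 members (30.6% of all genes), adding HES1 and NRARP. With sc as control NOTCH3 lost its call and NRARP gained one, the median of the members was 0.33, NOTCH2 turned to -0.054, JAG1 moved from -0.15 to -0.91 and DCBLD2 was -1.06. In shDCBLD2 with the empty vector as control 0 members were called, the median was 0.039, NOTCH1 turned to 0.039, NRARP to -0.48, and DCBLD2 was -1.14. There JAG1 moved from -0.04 to 0.73, HES4 from 0.07 to -0.63, HES1 from -0.25 to 0.07, HEY1 from -0.02 to 0.40 and NOTCH2 from 0.29 to 0.84, none of them called. Between the empty vector and sc 0 members were called with library totals or a prior count of 5, and 4 at 1.5-fold (13.7% of all genes). DCBLD2 was -0.28 there with library totals. The intervals cover counting error only, so depth limits HEY1 and NRARP most, and the spread between cultures is unknown. Scaling without the OE-labelled library, chosen after seeing the data, changed no call of a member in the comparisons that do not use it.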
